A study of Arabidopsis thaliana with 18 samples.

Results

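The comparison described here set roots of the double mutant gun1-101 rab8d-2 against roots of the double mutant nac103-11 rab8d-2 in Arabidopsis thaliana. Its members were chosen by genotype label and were 6 of the 18 libraries of the series, 3 of each double mutant. Both lines carried rab8d-2, described by the submitters as deficient in the function of plastid EF-Tu, and they differed in the second mutation. The first lacked GUN1 through the allele gun1-101, and the second lacked NAC103 through the allele nac103-11. The remaining 12 libraries, 3 each of rab8d-2, gun1-101, nac103-11 and WT (Col-0), entered the fit and are quoted where they place a gene. RNA came from root tips of seedlings on 1/2 MS medium with sucrose under long days. Seedling age is uncertain, as the titles of the libraries state 4 days where the series text states 3 days. The labels call the libraries biological replicates without naming separate plants or cultures, so p-values measure the spread between these libraries. RNA came from whole root tips, in which fewer cells of a type and less RNA per cell cannot be told apart.

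GUN1 is a pentatricopeptide repeat protein of plastids that is known for its part in signalling from damaged plastids to the nucleus. NAC103 is a NAC transcription factor known from the unfolded protein response of the endoplasmic reticulum and from DNA damage responses of roots. RAB8D, listed in the files as RABE1b (AT4G20360), encodes the elongation factor Tu of plastids, which brings aminoacyl-tRNA to the plastid ribosome. The comparison therefore asks how a root with impaired plastid translation differs in its transcripts when it lacks GUN1 and when it lacks NAC103.

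Totals of expected counts per library lay between 22625991 and 23090977 over the 18 libraries. Replicates 1 and 2 of gun1-101 rab8d-2 were nearly alike. Their gene counts differed by 2.02 times the variance that counting alone gives, against 11.6 to 195 times in the other 17 pairs of replicates. They still differed by more than counting noise and were kept as 2 libraries, with their sum counted as 1 library as an alternative. Whether the 2 are independent replicates cannot be told from the counts. Standard errors and p-values of the full fit treat them as independent. Replicate 3 of nac103-11 rab8d-2 stood apart, with a Pearson r of log levels across genes of 0.889 to 0.915 with the other 5 libraries of the comparison and a TMM scaling factor of 0.706 against 1.11 in each of the other 2 libraries of its genotype. Levels below are CPM, counts scaled by library size and TMM factor. A gene counted as called when edgeR's quasi-likelihood test over 21004 genes gave it a p below 0.05 after Benjamini-Hochberg adjustment. Fold changes are log2 of gun1-101 rab8d-2 over nac103-11 rab8d-2, given with a standard error. This standard error was derived as the absolute log2 fold change over the square root of the test's F statistic.

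The mutated genes were examined first, as a check of the labels. GUN1 (AT2G31400) had 58, 56.6 and 47.7 CPM in gun1-101 rab8d-2, against 72.3, 77.9 and 74.3 CPM in nac103-11 rab8d-2, a log2 fold change of -0.47 ± 0.17 with an adjusted p of 0.111 in edgeR. NAC103 (AT5G64060) had 13.6, 12 and 17.7 CPM in gun1-101 rab8d-2, against 8.35, 3.25 and 7.13 CPM in nac103-11 rab8d-2, a log2 fold change of 1.21 ± 0.45 with an adjusted p of 0.118. For both genes every library of the line mutated in it lay below every library of the other line, a separation seen in 32.3% of all genes tested, and neither difference passed the threshold. Transcripts of both genes were still counted in their own mutant, and the reads behind a gene count were not located on the gene here. NAC103 had 17.7, 29.7 and 11.4 CPM in rab8d-2, against 1.99, 0.539 and 0.695 CPM in WT. RABE1b, mutated in both lines, had 8.55, 8.14 and 5.88 CPM in gun1-101 rab8d-2, against 6.73, 7.73 and 15.8 CPM in nac103-11 rab8d-2, with overlapping libraries and an adjusted p of 0.429. WT libraries had 109, 176 and 126 CPM of RABE1b.

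Across all genes, 1035 of 21004 (4.93%) were called, 270 higher (1.29%) and 765 lower (3.64%) in gun1-101 rab8d-2. The number called changed with single libraries. Without replicate 1 or replicate 2 of gun1-101 rab8d-2 the number called was 11 and 12, without replicate 3 of nac103-11 rab8d-2 it was 21 (0.0989% of those tested), and with replicates 1 and 2 of gun1-101 rab8d-2 summed it was 12 (0.0565%). Without replicates 3 of nac103-11 rab8d-2 and of WT together it was 446, of which 394 were among the 1035. Without replicate 1 or replicate 2 of nac103-11 rab8d-2 it was 1668 and 1641. The adjusted p-values sat close under the threshold, with a median of 0.0414 and with 23 of the 1035 genes below 0.03. Only 11 genes (0.0524% of those tested) were called in the full fit and again without each of the 6 libraries in turn. This rule was chosen after values were seen. The same 11 genes were called with the replicate sum, with a trend of transcript length removed and with the replicate number as a block, and 2 of them in a fit of the 6 libraries alone.

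The 11 genes comprised 9 higher and 2 lower in gun1-101 rab8d-2. The 9 higher genes were AT5G09570, AT1G70900, AT4G25170, ARIA, CARAB-AK-LYS, APL2, SRO1, AT3G29270 and AT4G35360, and the 2 lower genes were AT3G28500 and MRD1. In 7 of the 11 genes (63.6%) all 6 libraries of nac103-11 rab8d-2 and rab8d-2 lay below all 12 libraries of the other 4 genotypes, a pattern found in 44 of the 21004 genes tested (0.209%). In these 7 genes the level in gun1-101 rab8d-2 was thus in the range of lines with an intact RAB8D gene, or above it. The pattern was noticed in the data and is given as a description. The 11 genes were chosen for a difference between the double mutants, which is part of this pattern. A share above that of all genes was thus partly set by the choice.

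SRO1 (AT2G35510), a relative of the stress and development regulator RCD1, had 59.6, 61.0 and 50.9 CPM in gun1-101 rab8d-2, against 22.4, 24.0 and 18.3 CPM in nac103-11 rab8d-2. Its level in rab8d-2 was 20.2, 24.6 and 25 CPM, while gun1-101 had 43.0 ± 1.73, nac103-11 42.6 ± 1.61 and WT 39.2 ± 1.79 CPM (SD, n = 3 each). SRO1 rose by a log2 fold change of 1.41 ± 0.13 in the double mutant comparison, with an adjusted p of 0.000166 in edgeR. The gun1-101 rab8d-2 libraries were the highest of the 18, and those of nac103-11 rab8d-2 and rab8d-2 were the lowest and overlapped.

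ARIA (AT5G19330), an armadillo repeat protein that binds the abscisic acid response factor ABF2, had 118, 114 and 112 CPM in gun1-101 rab8d-2, against 39.7, 43.0 and 24.7 CPM in nac103-11 rab8d-2. It had 40.4, 47.4 and 60.6 CPM in rab8d-2, and the means of gun1-101, nac103-11 and WT were 109 ± 6.64, 99.2 ± 3.70 and 96.3 ± 7.71 CPM (SD, n = 3 each). The log2 fold change between the double mutants was 1.68 ± 0.19, with an adjusted p of 0.000588 in edgeR. The double mutants did not overlap, and gun1-101 rab8d-2 was close to the 3 genotypes that are wild type for RAB8D.

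CARAB-AK-LYS (AT5G14060) is annotated as an aspartate kinase, an enzyme at the entry to the amino acids made from aspartate, such as lysine and threonine. It had 82.4, 79.0 and 72.8 CPM in gun1-101 rab8d-2, against 27.8, 26.0 and 19.2 CPM in nac103-11 rab8d-2, and 27.8, 43.2 and 36.2 CPM in rab8d-2. WT averaged 54.8 ± 2.37 CPM (SD, n = 3). The gene rose by 1.68 ± 0.16 on the log2 scale, with an adjusted p of 0.000197 in edgeR. Another aspartate kinase, AK3 (AT3G02020), was called in the same direction, with 47.8, 49.8 and 62.6 CPM in gun1-101 rab8d-2, against 17.3, 11.3 and 16.9 CPM in nac103-11 rab8d-2. Its log2 fold change was 1.81 ± 0.41 with an adjusted p of 0.0414, and the call held in 3 of the 6 fits that left out a library. With the length trend removed AK3 had 1.08 (adjusted p 0.236). Between the single mutants the 2 kinases differed. AK3 was lower in gun1-101 than in nac103-11, with a log2 fold change of -2.83 (adjusted p 0.011), and CARAB-AK-LYS had 0.13 (adjusted p 0.745).

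AT4G35360, annotated as a pantothenate kinase, had 37.2, 37.7 and 38.5 CPM in gun1-101 rab8d-2, against 18.4, 15.2 and 16.7 CPM in nac103-11 rab8d-2 and 18, 18.6 and 20.1 CPM in rab8d-2. WT averaged 35.3 ± 3.27 CPM. AT3G29270, annotated as a RING/U-box protein, had 25.3, 26.6 and 26.4 CPM in gun1-101 rab8d-2, against 8.74, 10.7 and 10.1 CPM in nac103-11 rab8d-2 and 8.79, 10.6 and 10.8 CPM in rab8d-2. For both genes nac103-11 rab8d-2 overlapped rab8d-2, and gun1-101 rab8d-2 stood clear of both. The log2 fold changes were 1.17 ± 0.12 for AT4G35360 and 1.41 ± 0.14 for AT3G29270, with adjusted p-values of 0.000202 and 0.000213 in edgeR.

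AT1G70900, which is annotated as an uncharacterized protein, had the lowest adjusted p of the comparison, 1.82e-05 in edgeR. It had 41.0, 39.9 and 47.7 CPM in gun1-101 rab8d-2, against 9.22, 10.1 and 7.69 CPM in nac103-11 rab8d-2, a log2 fold change of 2.25 ± 0.17. AT4G25170, an uncharacterized conserved protein, had 82.0, 79.7 and 69.6 CPM in gun1-101 rab8d-2, against 25.5, 23.1 and 13.4 CPM in nac103-11 rab8d-2, a log2 fold change of 1.90 ± 0.20 with an adjusted p of 0.000401. Both genes were also higher in gun1-101 than in nac103-11, with means of 74.4 ± 3.12 against 30.9 ± 2.58 CPM for AT1G70900 and 118 ± 11.9 against 43.4 ± 3.91 CPM for AT4G25170 (SD, n = 3 each). In that comparison of the single mutants, in which 1.2% of the genes tested were called, the adjusted p-values were 0.00312 and 0.00696 in edgeR.

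APL2 (AT1G27680), a large subunit of ADP-glucose pyrophosphorylase, the enzyme that commits glucose to starch, had 21.3, 18.7 and 17.8 CPM in gun1-101 rab8d-2, against 7.64, 7.73 and 5.31 CPM in nac103-11 rab8d-2. WT averaged 11.9 ± 0.850 CPM and rab8d-2 8.97 ± 2.1 CPM (SD, n = 3 each). APL2 rose by 1.48 ± 0.19 on the log2 scale, with an adjusted p of 0.00261 in edgeR, and its gun1-101 rab8d-2 libraries were the highest of the 18.

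AT5G09570, annotated as a Cox19-like protein of the CHCH family, a fold common in proteins of the mitochondrial intermembrane space, had the largest rise of the 9 genes. It had 34.2, 37.6 and 32.1 CPM in gun1-101 rab8d-2, against 2.97, 2.26 and 3.88 CPM in nac103-11 rab8d-2, a log2 fold change of 3.52 ± 0.45 with an adjusted p of 0.00241 in edgeR. The other genotypes had less than nac103-11 rab8d-2: rab8d-2 averaged 0.935 ± 0.274, gun1-101 0.664 ± 0.286, nac103-11 0.470 ± 0.396 and WT 0.235 ± 0.134 CPM (SD, n = 3 each). The gene was thus far above all other genotypes in gun1-101 rab8d-2, unlike the genes above.

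The 2 lower genes behaved differently from each other. AT3G28500, annotated as a 60S acidic ribosomal protein, had 0.824, 0.821 and 2.22 CPM in gun1-101 rab8d-2, against 11.4, 10.2 and 24.0 CPM in nac103-11 rab8d-2 and 9.79, 14.7 and 8.99 CPM in rab8d-2. The means of gun1-101, nac103-11 and WT were 0.250, 0.564 and 0.519 CPM, so the high level was seen in the 2 rab8d-2 genotypes with GUN1. The gene fell by 3.55 on the log2 scale with a standard error of 0.46 and an adjusted p of 0.00261 in edgeR. MRD1 (AT1G53480), named for its response in a methionine overaccumulating mutant, had 3 counts in all in gun1-101 rab8d-2 and 3408 in nac103-11 rab8d-2. The ratio of these counts, scaled by library size, was 1330, with a 95% interval of 453 to 6430 that covers counting error only. MRD1 averaged 0.393 CPM in rab8d-2 and 0.831 CPM in gun1-101, but 53.7 CPM in nac103-11 and 64.3 CPM in WT, so it was low in gun1-101 rab8d-2, rab8d-2 and gun1-101 and high in the other 3 genotypes. QQS (AT3G30720), an orphan gene tied to starch, was low in the same 3 genotypes as MRD1 and in 1 WT library, with 0.392, 0.235 and 0.302 CPM in gun1-101 rab8d-2, against 19.8, 16.0 and 6.69 CPM in nac103-11 rab8d-2. Its log2 fold change was -5.50 ± 1.02 with an adjusted p of 0.0412 in edgeR, a call held in 3 of the 6 fits that left out a library.

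**Figure D1:**
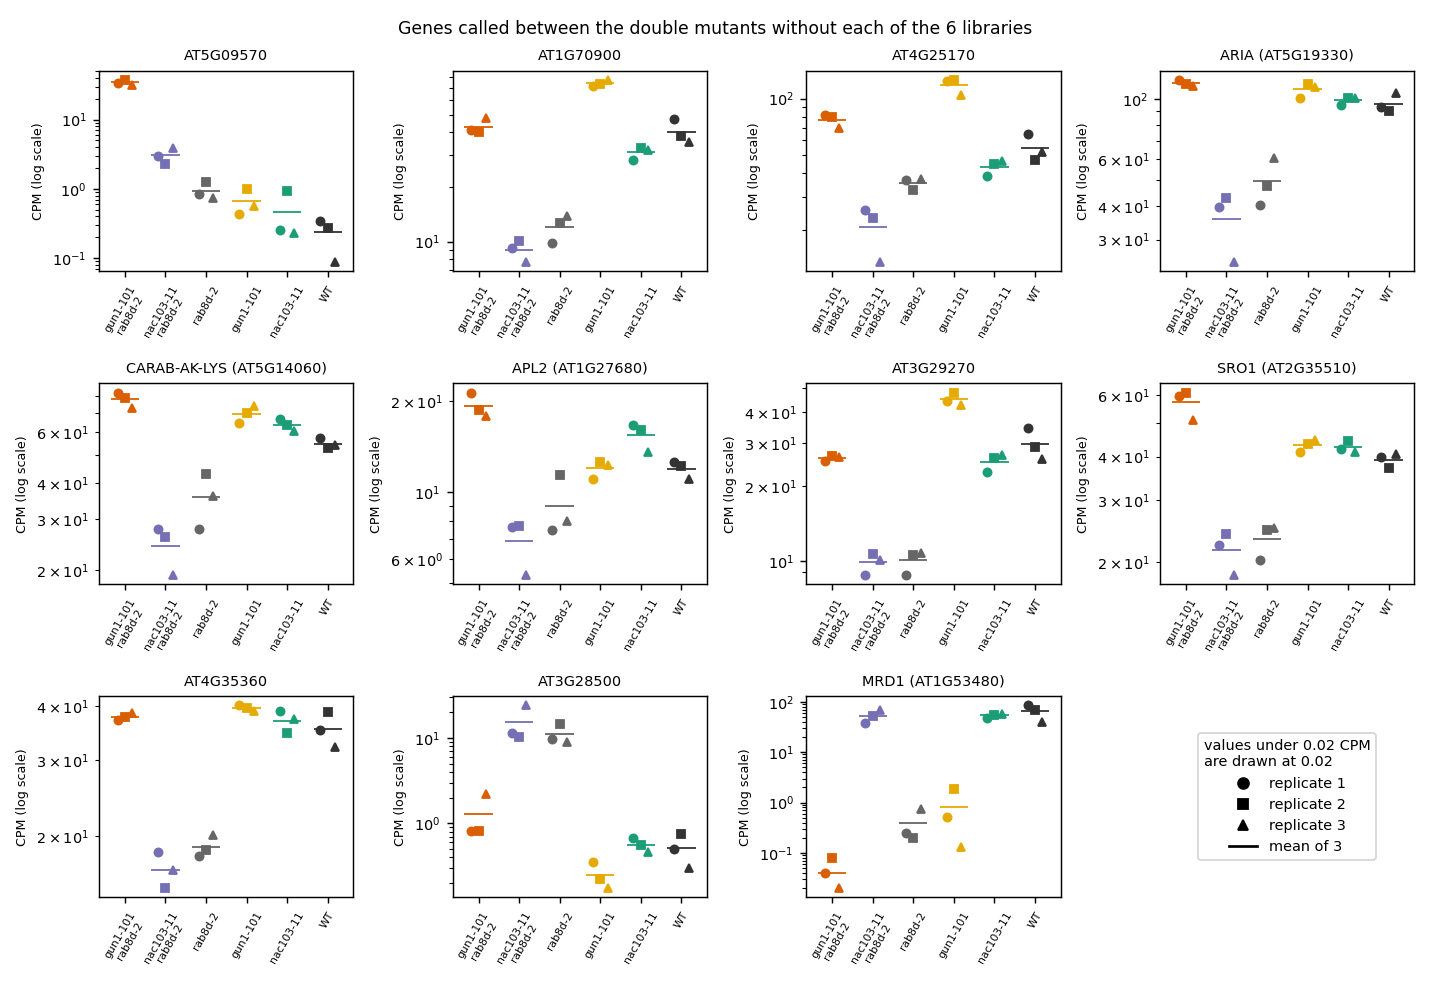
Levels of the 11 genes in every library, in CPM on a log scale, by genotype, with 1 symbol per replicate number and a line at the mean of 3. In SRO1, ARIA, CARAB-AK-LYS, AT4G35360, AT3G29270, AT4G25170 and AT1G70900 the nac103-11 rab8d-2 and rab8d-2 libraries lie below all others, while AT5G09570 is high in gun1-101 rab8d-2 alone and AT3G28500 is high in nac103-11 rab8d-2 and rab8d-2.

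Set against rab8d-2 itself, 10 of the 11 genes were called in gun1-101 rab8d-2 and 1 in nac103-11 rab8d-2. In those comparisons 4.18% and 2.54% of all genes were called. The 11 genes were chosen with the same double mutant libraries, so their shares cannot be weighed against those of all genes. They share the rab8d-2 libraries, so each gene's values are given side by side. SRO1 had a log2 fold change of 1.3 ± 0.13 (adjusted p 0.000272 in edgeR) in gun1-101 rab8d-2 over rab8d-2 and of -0.11 in nac103-11 rab8d-2 over rab8d-2 (adjusted p 0.693). AT3G29270 had 1.37 ± 0.14 (adjusted p 0.000272) in the first and -0.03 (adjusted p 0.936) in the second. AT5G09570 had 5.2 ± 0.49 (adjusted p 0.000204) and 1.68 (adjusted p 0.0572). The gene called in nac103-11 rab8d-2 was MRD1, 7.07 higher than in rab8d-2 on the log2 scale with an adjusted p of 0.000333.

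The promoters of these genes were read from the annotated starts of RefSeq's TAIR10.1 genome, from 250 bases before to 50 bases after the start. They are printed 5′ to 3′ on the strand of the gene. Capitals mark the site II element TGGGCC, an element known from promoters of ribosomal and mitochondrial protein genes, found on either strand. It occurred in 4 of the 11 promoters (36.4%) and in 18.1% of the promoters of all tested genes. AT5G09570 and AT3G28500 are shown because they moved most among the genes with a match.
AT5G09570, chr5:2970248-2970547, plus strand: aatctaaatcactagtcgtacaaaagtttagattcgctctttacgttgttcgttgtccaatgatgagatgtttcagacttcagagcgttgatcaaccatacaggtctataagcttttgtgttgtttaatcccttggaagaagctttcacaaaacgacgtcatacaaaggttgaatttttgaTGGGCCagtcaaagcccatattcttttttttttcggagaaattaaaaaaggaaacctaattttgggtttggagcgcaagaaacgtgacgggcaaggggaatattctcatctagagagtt
AT3G28500, chr3:10681779-10682078, plus strand: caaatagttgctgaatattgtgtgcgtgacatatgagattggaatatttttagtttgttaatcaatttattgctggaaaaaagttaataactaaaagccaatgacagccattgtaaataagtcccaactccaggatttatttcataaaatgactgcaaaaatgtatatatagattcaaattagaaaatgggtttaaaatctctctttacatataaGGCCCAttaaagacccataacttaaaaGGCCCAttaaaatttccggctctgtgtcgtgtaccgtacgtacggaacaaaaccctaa

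Beyond the 11 genes, the calls were split by transcript length, as judged from the ratio of deposited counts to TPM. Among the shortest 20% of genes 11 were called higher and 510 lower in gun1-101 rab8d-2, and their median log2 fold change was -0.41. Among the longest 20% of genes 141 were called higher and 8 lower, and the median was 0.37. The shortest genes had medians of -0.25, -0.19 and 0.06 in gun1-101 rab8d-2, against 0.16, 0.18 and 0.56 in nac103-11 rab8d-2, as log2 distances from the mean of all libraries. The longest genes had medians of 0.32, 0.26 and 0.10 in gun1-101 rab8d-2, against 0.00, 0.01 and -0.56 in nac103-11 rab8d-2. WT replicates 1 and 2 leaned the same way as replicate 3 of nac103-11 rab8d-2, with medians of 0.19 and 0.14 in the shortest and -0.23 and -0.34 in the longest genes. When a smooth length trend was removed from each library, 36 genes (0.171%) were called, 25 higher and 11 lower. On log2(TPM + 1) the split also turned, with 601 higher and 433 lower, beside a median shift of all genes of 0.22. Of the 1035 genes called in the full fit, 36 kept the call and its direction with the length trend removed. On log2(TPM + 1) 655 kept both. The split of the calls into higher and lower thus differed between these fits.

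**Figure D2:**
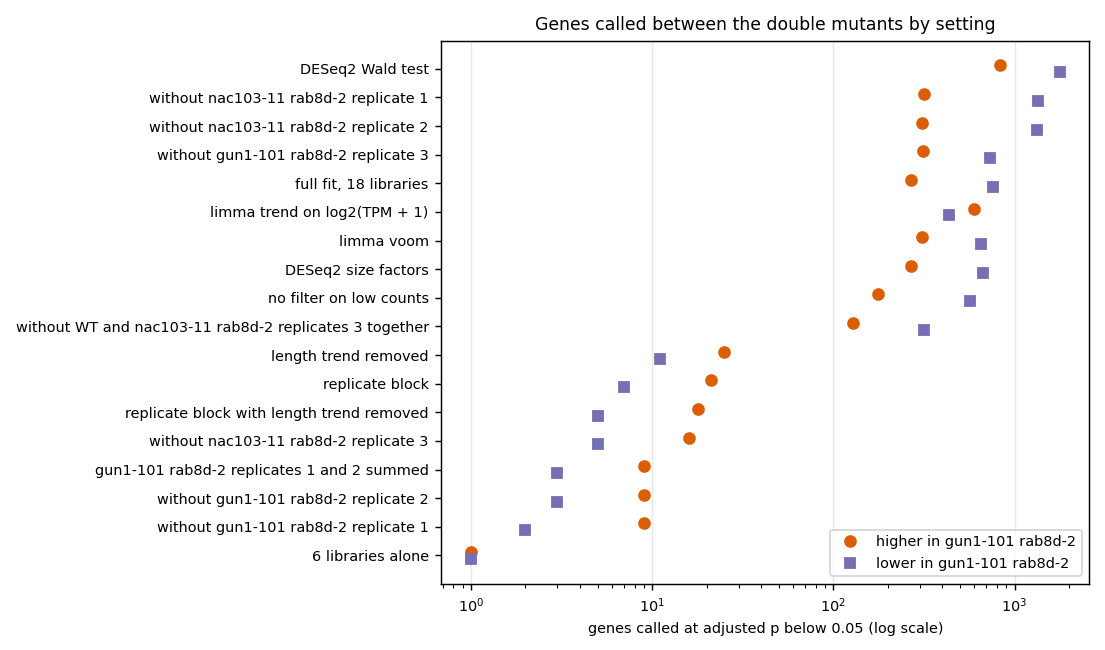
Number of genes called higher and lower in gun1-101 rab8d-2 against nac103-11 rab8d-2, on a log axis, for the full fit and each alternative. The counts run from 2 genes in the 6 libraries alone to 2611 with DESeq2's Wald test.

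**Figure D3:**
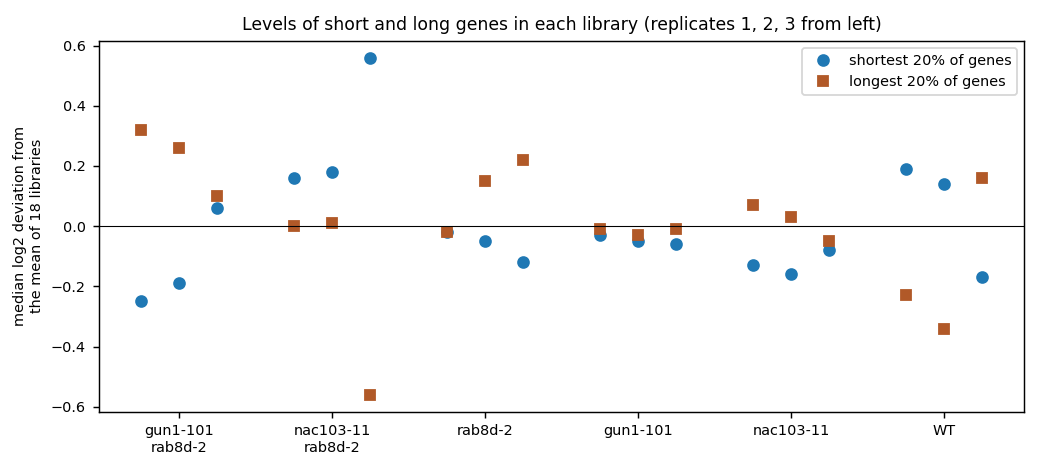
Median log2 deviation of the shortest 20% and the longest 20% of genes from the mean of the 18 libraries, for each library by genotype. The medians lie farthest apart in nac103-11 rab8d-2 replicate 3, at 0.56 and -0.56, and in gun1-101 rab8d-2 replicates 1 and 2 the order is reversed.

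Of 39 genes named as ribosomal proteins, 0 were called higher and 14 lower, with a median log2 fold change of -0.79 beside -0.00 over all genes tested. Of all genes 3.64% were called lower, and of the shortest 20% of genes 510 of 4201. With the length trend removed, 0 of the 39 were called in edgeR and their median was -0.43, and on log2(TPM + 1) 10 were lower. Subunits of the mitochondrial import pore were among the lowest named genes. TOM5 (AT5G08040) had 59.3, 67.9 and 93.7 CPM in gun1-101 rab8d-2, against 136, 145 and 266 CPM in nac103-11 rab8d-2. TOM22-V (AT5G43970) had 59.6, 62.8 and 83.4 CPM in gun1-101 rab8d-2, against 127, 120 and 267 CPM in nac103-11 rab8d-2. Neither gene's libraries overlapped, and in both the highest was replicate 3 of nac103-11 rab8d-2. The log2 fold changes were -1.31 ± 0.29 and -1.32 ± 0.28, each with an adjusted p of 0.0414 in edgeR, and each call held in 3 of the 6 fits that left out a library. TIM17-1 (AT1G20350) is a subunit of the inner membrane translocase. It had 0.392, 0.469 and 0.453 CPM in gun1-101 rab8d-2, against 1.42, 2.06 and 3.00 CPM in nac103-11 rab8d-2. Its log2 fold change was -2.28 ± 0.46 with an adjusted p of 0.0414 in edgeR. The call held in 3 of the 6 fits that left out a library. With the length trend removed the log2 fold changes were -0.85 for TOM5, -0.82 for TOM22-V and -1.94 for TIM17-1. Their adjusted p-values in edgeR were then 0.0981, 0.0928 and 0.0908.

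Promoters of the genes on the lower side held the site II element more often than others. It occurred in 39.1% of the 765 promoters of genes called lower, in 9.63% of the 270 of genes called higher and in 18.1% of all. Within the shortest 20% of genes the shares were 43.7% of the genes called lower and 20.4% of all, and outside it 29.8% of the genes called lower and 17.6% of all. These shares describe the calls of the full fit, with the dependence on length and on single libraries given above. The promoters of TOM22-V and TIM17-1 are shown as examples with the element in capitals, while that of TOM5 held no match in this window.
TOM22-V, chr5:17692536-17692835, plus strand: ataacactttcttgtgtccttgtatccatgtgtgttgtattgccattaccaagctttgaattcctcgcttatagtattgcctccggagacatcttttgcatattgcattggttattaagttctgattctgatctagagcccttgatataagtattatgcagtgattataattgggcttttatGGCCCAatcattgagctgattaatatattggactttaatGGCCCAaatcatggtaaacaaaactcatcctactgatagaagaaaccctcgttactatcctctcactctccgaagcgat
TIM17-1, chr1:7043378-7043677, plus strand: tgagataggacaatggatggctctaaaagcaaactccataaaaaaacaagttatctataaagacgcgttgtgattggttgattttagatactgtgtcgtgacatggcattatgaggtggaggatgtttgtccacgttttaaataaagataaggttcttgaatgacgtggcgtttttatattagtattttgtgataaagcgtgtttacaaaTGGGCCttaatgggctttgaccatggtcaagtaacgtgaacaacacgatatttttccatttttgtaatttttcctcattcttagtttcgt

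The unfolded protein response, in which NAC103 is known to act, had 3 of 23 members called higher and 0 lower, with a median log2 fold change of 0.24 (1.29% of all genes were called higher). At an unadjusted p below 0.05 in edgeR 3 of the 23 passed, where 24.6% of all genes did. Libraries of the double mutants did not overlap in 5 of the 23, beside 32.3% of all genes. With the length trend removed 0 members were called in edgeR and the median was 0.00, and DESeq2's Wald test and limma voom on the counts called 3 and 2 higher. BIP3 (AT1G09080), an endoplasmic reticulum chaperone of the HSP70 family that is strongly induced by misfolded proteins, had 1.61, 1.41 and 3.73 CPM in gun1-101 rab8d-2, against 0.435, 0.357 and 0.438 CPM in nac103-11 rab8d-2. It had 0.0415, 0.121 and 0.0405 CPM in rab8d-2 and at most 0.0995 CPM in WT. AT1G18830, annotated as a WD40 repeat protein, had 7.41, 9.54 and 25.6 CPM in gun1-101 rab8d-2, against 2.65, 3.85 and 5.06 CPM in nac103-11 rab8d-2, and 0.124, 0.241 and 0.122 CPM in rab8d-2. Both genes were thus highest in gun1-101 rab8d-2 and next highest in nac103-11 rab8d-2, with no overlap between the double mutants. The log2 fold changes between the double mutants were 2.45 ± 0.59 for BIP3 and 1.88 ± 0.51 for AT1G18830, with adjusted p-values of 0.0414 and 0.0477 in edgeR, and neither call was kept in any of the 6 fits that left out a library. Against rab8d-2, BIP3 rose by 4.95 (adjusted p 0.0021) in gun1-101 rab8d-2 and had a log2 fold change of 2.50 (adjusted p 0.0785) in nac103-11 rab8d-2. AT1G18830 rose against rab8d-2 by 6.40 (adjusted p 0.000272) in gun1-101 rab8d-2 and by 4.52 (adjusted p 0.00453) in nac103-11 rab8d-2. IRE1A (AT2G17520), a sensor kinase and ribonuclease of the same pathway, averaged 60.7 CPM in gun1-101 rab8d-2, close to WT at 61.3 CPM. Its lowest genotype mean was that of nac103-11 rab8d-2, at 42.0 CPM. The means of rab8d-2, gun1-101 and nac103-11 were 49.8, 63.9 and 63.3 CPM. Against rab8d-2 neither double mutant was called for IRE1A, at log2 fold changes of 0.29 (gun1-101 rab8d-2, adjusted p 0.275) and -0.24 (nac103-11 rab8d-2, adjusted p 0.35). Between the double mutants its log2 fold change was 0.53 ± 0.14, with an adjusted p of 0.0479 in edgeR. With the length trend removed the log2 fold changes were 2.33 for BIP3, 1.39 for AT1G18830 and 0.11 for IRE1A, with adjusted p-values of 0.0992, 0.185 and 0.73. The constitutive chaperones BIP1 and BIP2 had log2 fold changes of 0.22 and 0.24 and the transcription factor BZIP60 of -0.21, none of them called.

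The promoter of BIP3 is printed because it holds elements of this pathway. Capitals mark the UPRE-III element TCATCG, known as a binding site of NAC103, and the ERSE element, CCAAT and CACG with 10 bases of any kind between them, each on either strand. UPRE-III matched at -193 from the start and ERSE at -174 and -96, with the G-box CACGTG at -176 overlapping the first ERSE match. UPRE-III occurred in 8.38% of all promoters, 6.67% of those of genes called higher and 9.15% of those called lower, and ERSE, added after values were seen, in 1.02% of all. Neither AT1G18830 nor IRE1A held UPRE-III or ERSE in this window.
BIP3, chr1:2931801-2932100, minus strand: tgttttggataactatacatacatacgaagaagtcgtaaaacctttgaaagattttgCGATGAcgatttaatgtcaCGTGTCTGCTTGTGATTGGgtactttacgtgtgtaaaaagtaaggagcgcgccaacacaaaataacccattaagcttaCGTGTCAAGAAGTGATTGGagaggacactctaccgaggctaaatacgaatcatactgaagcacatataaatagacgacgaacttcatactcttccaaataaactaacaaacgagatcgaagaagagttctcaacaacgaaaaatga

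Genes of plastid transcription, editing and plastid-to-nucleus signalling had 2 members called higher and 0 lower of 18, beside 1.29% and 3.64% of all genes. DESeq2's Wald test called 3 higher and 1 lower and limma voom called 0, and with the length trend removed 0 were called in edgeR. At an unadjusted p below 0.05 in edgeR 5 of the 18 passed, where 24.6% of all genes did. GUN5 (AT5G13630), the H subunit of magnesium chelatase in chlorophyll synthesis, had 6.98, 6.42 and 14.1 CPM in gun1-101 rab8d-2, against 1.98, 2.06 and 3.88 CPM in nac103-11 rab8d-2. GLK2 (AT5G44190), a transcription factor that activates photosynthesis genes, had 2.39, 2.50 and 7.50 CPM in gun1-101 rab8d-2, against 0.870, 1.31 and 1.31 CPM in nac103-11 rab8d-2. The double mutants did not overlap in either gene, and both lines were below WT, which had 19.2, 31.7 and 55.1 CPM of GUN5 and 10.1, 23.1 and 16.0 CPM of GLK2. The log2 fold changes were 1.82 ± 0.45 and 1.83 ± 0.44, each with an adjusted p of 0.0414 in edgeR, and the calls held in 0 and 1 of the 6 fits that left out a library. GPRI1 (AT2G20570), of the same list, had a log2 fold change of 1.86 and was not called, with an adjusted p of 0.31 in edgeR. Its levels were low, with 0.353, 0.548 and 0.641 CPM in gun1-101 rab8d-2, against 0.119, 0.119 and 0.188 CPM in nac103-11 rab8d-2. Of 30 photosynthesis genes 0 were called in edgeR (median log2 fold change 0.63), of 23 genes of tetrapyrrole synthesis 0 (median 0.07) and of 14 genes of plastid translation 0 (median -0.45). At an unadjusted p below 0.05, which 24.6% of all genes passed, the numbers were 2 of 30, 3 of 23 and 8 of 14, and DESeq2's Wald test called 0, 1 and 2. Of 25 plastid chaperones, proteases and import factors CPN20, the co-chaperonin of plastids, was called lower, with 203, 215 and 244 CPM in gun1-101 rab8d-2, against 325, 297 and 399 CPM in nac103-11 rab8d-2 and a log2 fold change of -0.63 ± 0.16 (adjusted p 0.0431).

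Of 27 genes of the DNA damage response, 0 were called higher and 2 lower, beside 3.64% of all genes called lower, with a median log2 fold change of -0.12. DESeq2's Wald test called 2 higher and 4 lower, and limma voom 2 higher and 1 lower. TSO2 (AT3G27060), a subunit of ribonucleotide reductase that makes DNA precursors, had 65.1, 62.9 and 84.8 CPM in gun1-101 rab8d-2, against 135, 94.8 and 187 CPM in nac103-11 rab8d-2, a log2 fold change of -0.97 ± 0.23 with an adjusted p of 0.0414 in edgeR. AT3G27630, annotated as an inhibitor of cyclin-dependent kinases, had 1.57, 1.41 and 1.58 CPM in gun1-101 rab8d-2, against 3.20, 2.14 and 8.38 CPM in nac103-11 rab8d-2, a log2 fold change of -1.57 ± 0.42 with an adjusted p of 0.0458. The 2 lines did not overlap in either gene, and the highest value of each was in replicate 3 of nac103-11 rab8d-2. Without that library the log2 fold changes were -0.71 for TSO2 and -0.83 for AT3G27630, with adjusted p-values of 0.146 and 0.198. With the length trend removed they were -0.98 and -1.02, with adjusted p-values of 0.0981 and 0.125. SOG1, the master regulator of the response, had a log2 fold change of -0.22 with an adjusted p of 0.388, and the kinases ATM and ATR of 1.26 (adjusted p 0.062) and 0.83 (adjusted p 0.0609). AT1G07500, listed with the inhibitors of cyclin-dependent kinases, had 0 counts in gun1-101 rab8d-2 and 102 in nac103-11 rab8d-2, at least 39.7-fold lower when 3 counts over the group are taken as the floor. The 102 counts came mostly from replicate 3, which had 4.88 CPM against 0 and 0.952 CPM in replicates 1 and 2, and the adjusted p was 0.222.

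The remaining lists held few calls. Of 20 auxin genes PIN3 (AT1G70940), an auxin efflux carrier of the columella and stele, was called higher, with 72.0, 72.6 and 49.6 CPM in gun1-101 rab8d-2, against 38.5, 42.6 and 34.3 CPM in nac103-11 rab8d-2 (log2 fold change 0.75 ± 0.17, adjusted p 0.0414). TAA1 (AT1G70560), an enzyme of auxin synthesis from tryptophan, was called lower, with 12.5, 12.2 and 10.9 CPM in gun1-101 rab8d-2, against 18.1, 16.5 and 24.4 CPM in nac103-11 rab8d-2 (log2 fold change -0.73 ± 0.17, adjusted p 0.0414). Neither pair of groups overlapped, as in 32.3% of all genes tested. Of all genes 1.29% were called higher and 3.64% lower. At an unadjusted p below 0.05 in edgeR 2 of the 20 passed, where 24.6% of all genes did. With the length trend removed PIN3 had a log2 fold change of 0.41 (adjusted p 0.214) and TAA1 of -0.70 (adjusted p 0.0981). TAA1 was also called lower in gun1-101 than in nac103-11, at -0.75 (adjusted p 0.0474). The lists of G2 and M phase genes (28 tested), root stem cell niche genes (16), cytosolic heat shock genes (19) and oxidative stress genes (16) had 0 members called in edgeR. At an unadjusted p below 0.05, 7, 3, 3 and 2 of their members passed, where 24.6% of all genes did, and DESeq2's Wald test called 1, 1, 0 and 1. The lists of abscisic acid, jasmonate, salicylate and indole glucosinolate genes had 0 called members in edgeR and in DESeq2, with medians of 0.33, 0.55, 0.45 and 0.07, and 0, 2, 1 and 0 members at an unadjusted p below 0.05.

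Markers of cell types were examined because bulk levels can follow the mix of cells. The lists of root hair, endodermis, xylem, phloem, columella and root cap, and non-hair epidermis markers had 0 called members of 12, 10, 14, 10, 6 and 2. Their median log2 fold changes were -0.23, -0.28, -0.36, 0.44, -0.21 and 0.00. At an unadjusted p below 0.05, which 24.6% of all genes passed, 5 of 10 phloem markers, 1 of 14 xylem markers, 1 of 6 columella and root cap markers and 0 of the other lists passed, and DESeq2's Wald test called 1 phloem and 1 xylem marker. Replicate 3 of nac103-11 rab8d-2 was again apart. Summed over the list, endodermis markers had 389, 390 and 225 CPM in gun1-101 rab8d-2, against 302, 200 and 696 CPM in nac103-11 rab8d-2. Xylem markers had 107, 105 and 45.7 CPM in gun1-101 rab8d-2, against 78.1, 48.5 and 224 CPM in nac103-11 rab8d-2. Phloem markers had 171, 164 and 114 CPM in gun1-101 rab8d-2, against 108, 101 and 154 CPM in nac103-11 rab8d-2. The 28 genes of G2 and M phase had 730, 714 and 742 CPM in gun1-101 rab8d-2, against 880, 814 and 533 CPM in nac103-11 rab8d-2. Replicate 3 of nac103-11 rab8d-2 thus held the highest sums of the endodermis and xylem markers and the lowest of the G2 and M phase genes among the 6 libraries, and all members of the endodermis, xylem and phloem lists were above 0 in each of them. The part of these markers in the calls was not tested. Seed storage genes had a median of -2.42 over 7 members with 0 called, and OLEO1 had 0.118, 0.0391 and 0.0377 CPM in gun1-101 rab8d-2, against 0.0396, 0 and 4.38 CPM in nac103-11 rab8d-2. The high value came from replicate 3 of nac103-11 rab8d-2. The part of cell mix in the results above was not tested.

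**Figure D4:**
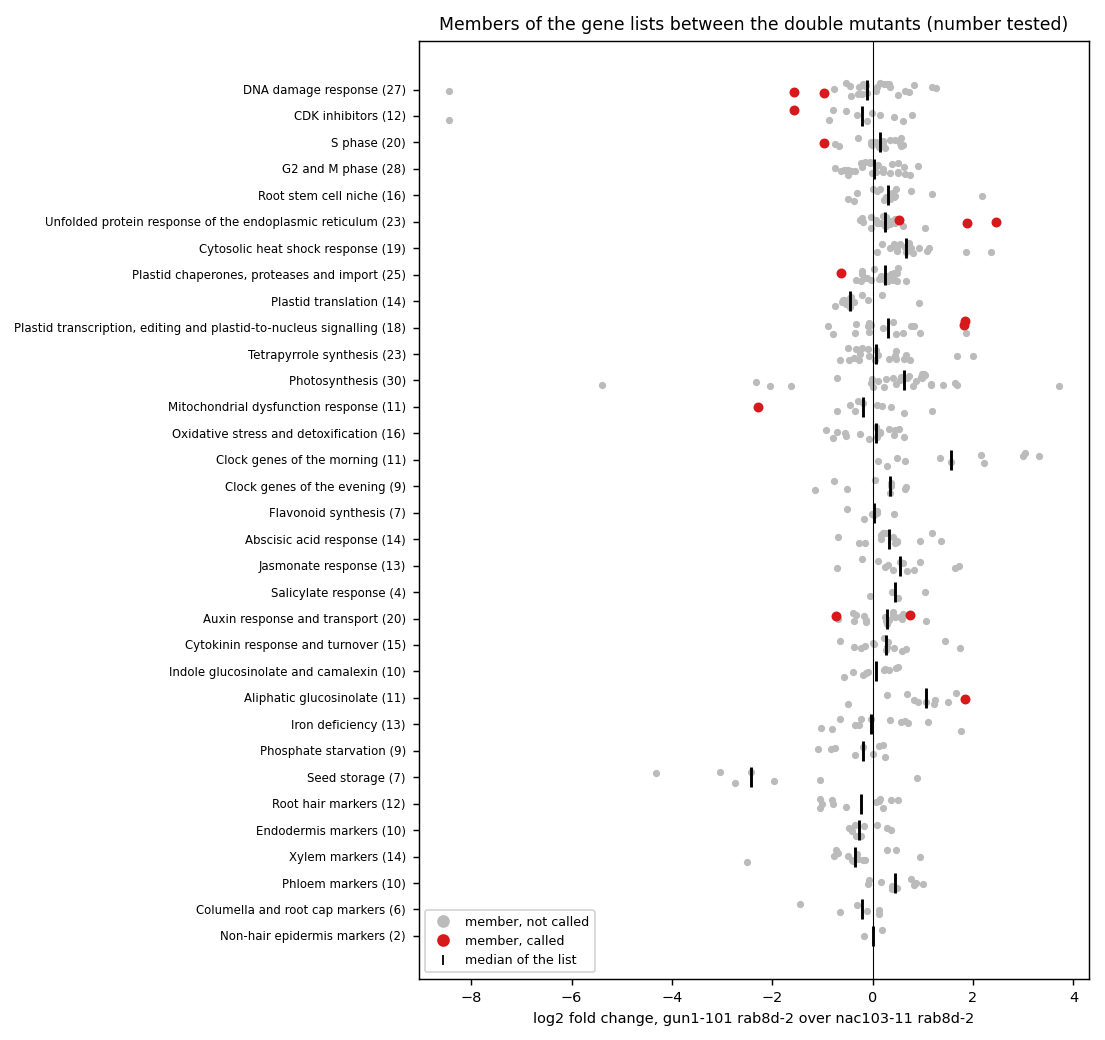
Log2 fold changes of the members of each gene list in gun1-101 rab8d-2 over nac103-11 rab8d-2, 1 dot per gene, with called genes in red and the list's median as a bar. Called members are few in every list, with 3 higher in the unfolded protein response, 2 higher in plastid-to-nucleus signalling and 2 lower in the DNA damage response.

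Among the genes with the widest changes were several with high levels in gun1-101 rab8d-2 alone. AT5G39190, annotated as germin-like protein 2, had 21.8, 19.7 and 24.7 CPM in gun1-101 rab8d-2, against 2.18, 2.82 and 6.81 CPM in nac103-11 rab8d-2, and at most 0.215 CPM in any WT library. The subtilase SBT3.3 (AT1G32960) had 7.73, 7.82 and 5.35 CPM in gun1-101 rab8d-2, against 0.791, 0.754 and 2.69 CPM in nac103-11 rab8d-2. The nudix hydrolase NUDT10 (AT4G25434) had 15.1, 16.1 and 16.1 CPM in gun1-101 rab8d-2, against 4.07, 6.23 and 4.06 CPM in nac103-11 rab8d-2. None of the 3 genes overlapped between the double mutants, and each was called higher than in rab8d-2 as well, with adjusted p-values of 0.021, 0.0037 and 0.00349 in edgeR. Their log2 fold changes between the double mutants were 2.50 ± 0.68, 2.33 ± 0.61 and 1.72 ± 0.32, with adjusted p-values of 0.0482, 0.0442 and 0.0412, and the calls held in 0, 1 and 3 of the 6 fits that left out a library.

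MYB4 (AT4G38620), a repressor of phenylpropanoid synthesis genes, had 95.8, 98.1 and 37.5 CPM in gun1-101 rab8d-2, against 27.2, 13.2 and 19.3 CPM in nac103-11 rab8d-2, a log2 fold change of 1.96 ± 0.43. APRR2 (AT4G18020), a response regulator, had 37.8, 35.2 and 36.2 CPM in gun1-101 rab8d-2, against 9.57, 11.4 and 4.19 CPM in nac103-11 rab8d-2, a log2 fold change of 2.11 ± 0.40. HR4 (AT3G50480), a relative of the resistance protein RPW8, had 17.4, 16.0 and 13.2 CPM in gun1-101 rab8d-2, against 5.26, 4.36 and 3.94 CPM in nac103-11 rab8d-2, a log2 fold change of 1.78 ± 0.45. SCPL7 (AT3G10450), a serine carboxypeptidase-like protein, was also among the 12 highest, at 2.03 ± 0.41. The adjusted p-values of these 4 genes in edgeR lay between 0.0412 and 0.0419, and the calls held in 2 or 3 of the 6 fits that left out a library. In MYB4 replicate 3 of gun1-101 rab8d-2 was under the other 2 libraries of its genotype but above all of nac103-11 rab8d-2.

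On the lower side XPL1 (AT3G18000), a methyltransferase of phosphocholine synthesis, had 29.7, 31.5 and 32.6 CPM in gun1-101 rab8d-2, against 219, 102 and 115 CPM in nac103-11 rab8d-2. It was likewise low in gun1-101, with 39.8, 39.5 and 50.1 CPM, against 261, 322 and 214 CPM in nac103-11, and the 2 comparisons had log2 fold changes of -2.22 ± 0.40 (adjusted p 0.0391) and -2.62 (adjusted p 0.011) in edgeR. The difference between these 2 changes was 0.41 with an adjusted p of 0.749. AOX1C (AT3G27620), an alternative oxidase of mitochondria, had 1.80, 2.19 and 3.85 CPM in gun1-101 rab8d-2, against 6.41, 5.71 and 7.44 CPM in nac103-11 rab8d-2, a log2 fold change of -1.31 ± 0.32. CLE6 (AT2G31085), a gene of a CLE signalling peptide, had 2.04, 1.96 and 1.02 CPM in gun1-101 rab8d-2, against 4.11, 4.92 and 7.25 CPM in nac103-11 rab8d-2, a log2 fold change of -1.69 ± 0.36. Both genes had an adjusted p of 0.0414 in edgeR and kept the call in 3 of the 6 fits that left out a library. WT had 32.5, 24.2 and 15.1 CPM of CLE6, above both double mutants, and at most 0.539 CPM of AOX1C, below both. The others of the 12 lowest were ROC5, SLD2, PLAT2, AGP14 and PAR1, with log2 fold changes from -1.46 to -1.31.

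To set the double mutants beside lines with an intact RAB8D gene, gun1-101 was tested against nac103-11 in the same fit. Here 252 genes were called (1.2%), 142 higher (0.676%) and 110 lower (0.524%) in gun1-101. Of the 1035 genes called between the double mutants, 18 were called in the same direction between the single mutants. A test of the difference between the 2 changes called 62 genes (0.295%), 43 with a more positive change in the rab8d-2 background (0.205%) and 19 with a more negative one (0.0905%). Of the 11 genes kept throughout, 5 were among them: ARIA (difference 1.55, adjusted p 0.0276 in edgeR), CARAB-AK-LYS (1.55, 0.0104), AT4G35360 (1.07, 0.0132), SRO1 (1.39, 0.00566) and APL2 (1.84, 0.0104). The tested difference contains the change between the double mutants, by which the 11 genes were chosen. For these 5 genes the change between gun1-101 and nac103-11 lay between -0.37 and 0.13 on the log2 scale and was not called. For AT3G29270, AT4G25170 and AT1G70900 the difference was 0.57, 0.45 and 0.98 with adjusted p-values of 0.234, 0.466 and 0.095.

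Genes of aliphatic glucosinolates, sulphur-rich defence compounds made from methionine, were among those with a called difference. Of 11 members tested 5 were called in the test of the difference, beside 0.295% of all genes, and 1, SOT18, was called higher between the double mutants, beside 1.29%. Between the single mutants 7 were called lower and 1 higher in gun1-101, beside 0.524% and 0.676% of all genes. IMS2 (AT5G23020), an enzyme of methionine side chain elongation, had 170, 170 and 202 CPM in gun1-101 rab8d-2, against 61.8, 69.8 and 98.4 CPM in nac103-11 rab8d-2, a log2 fold change of 1.24 ± 0.36 with an adjusted p of 0.0594 in edgeR. In the single mutants it had 6.73, 4.35 and 8.29 CPM in gun1-101, against 83.7, 166 and 86.7 CPM in nac103-11, a log2 fold change of -4.12 with an adjusted p of 0.000351. The gene thus stood higher in gun1-101 rab8d-2 and lower in gun1-101 than in the matching nac103-11 line, a difference of 5.35 with an adjusted p of 0.00131. MYB28 (AT5G61420), the main activator of the pathway, had 37.5, 39.4 and 56.6 CPM in gun1-101 rab8d-2, against 22.2, 23.1 and 26.4 CPM in nac103-11 rab8d-2, and 5.16, 3.23 and 4.91 CPM in gun1-101, against 22.6, 40.0 and 20.1 CPM in nac103-11. Its difference was 3.53 with an adjusted p of 0.0138. CYP79F2, MAM1 and CYP83A1, enzymes of the same pathway, had differences of 6.05, 5.73 and 5.51 with adjusted p-values of 0.00545, 0.0105 and 0.0404. SOT18 (AT1G74090), a sulfotransferase of the last step of core synthesis, had 38.5, 41.0 and 47.9 CPM in gun1-101 rab8d-2, against 11.6, 12.9 and 11.0 CPM in nac103-11 rab8d-2, with a log2 fold change of 1.84 ± 0.32 (adjusted p 0.0309) that was 1.55 in the single mutants (adjusted p 0.0315).

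The summed level of the 11 glucosinolate genes was 733, 731 and 861 CPM in gun1-101 rab8d-2, against 324, 271 and 712 CPM in nac103-11 rab8d-2. It was 81.0, 82.5 and 99.6 CPM in gun1-101, against 274, 650 and 274 CPM in nac103-11. A score of clock phase, the mean log2(CPM + 0.5) of 11 morning genes minus that of 9 evening genes, was -2.63, -2.62 and 0.20 in gun1-101 rab8d-2 and -2.90, -2.33 and -3.56 in nac103-11 rab8d-2, but 1.94, 1.82 and 1.93 in gun1-101, against -2.14, -2.53 and -2.42 in nac103-11. The low glucosinolate levels of gun1-101 came with scores above those of all libraries of the other 3 genotypes of this test, of which replicate 3 of gun1-101 rab8d-2 was the nearest, and the part of clock phase in the differences was not tested. Replicates 3 of rab8d-2 and of WT had scores of 2.45 and 2.84 with summed glucosinolate levels of 310 and 179 CPM, where the other libraries of rab8d-2 had 294 and 108 CPM and those of WT 341 and 237 CPM. The morning genes had a median log2 fold change of 1.57 between the double mutants, 0 of 11 called in edgeR and 0 at an unadjusted p below 0.05, and the high values came from replicate 3 of gun1-101 rab8d-2.

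**Figure D5:**
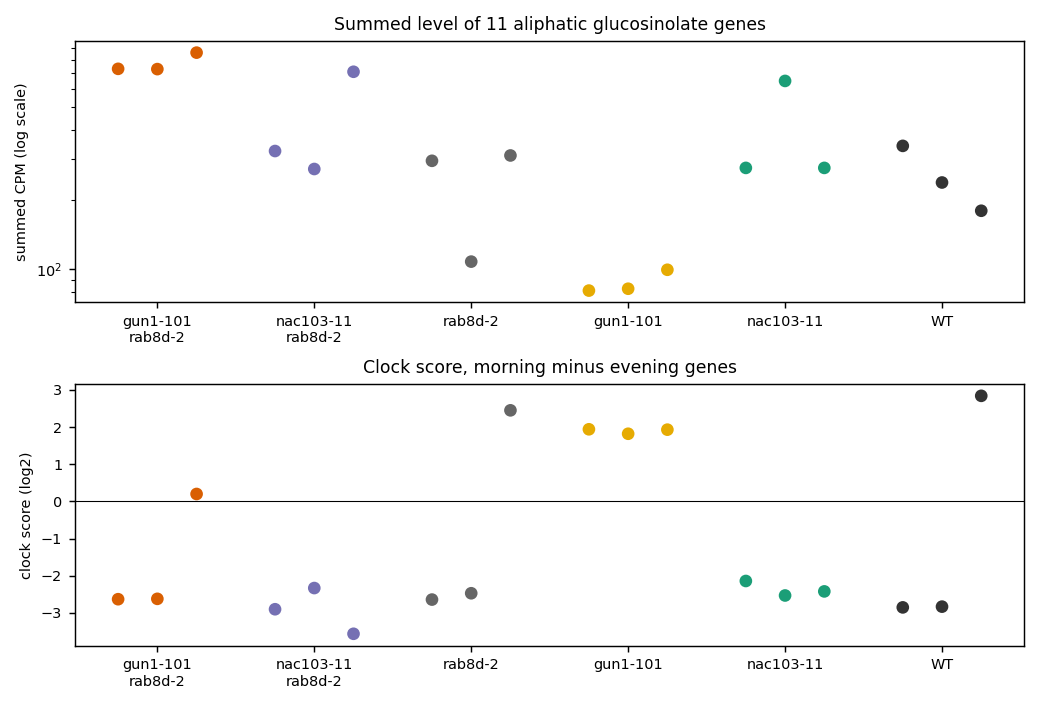
Upper panel, summed CPM of 11 aliphatic glucosinolate genes in each library on a log scale. Lower panel, clock score in log2 units, morning minus evening genes. The gun1-101 libraries have the lowest sums, 81.0 to 99.6 CPM, and clock scores of 1.82 to 1.94, while gun1-101 rab8d-2 has the highest median sum, 733 CPM.

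A negative difference was called in 19 genes (0.0905%), among them TIM17-1, CLE1, GLYI4, PRF3, PDX1.1 and ATG8B. These calls changed with single libraries. Without replicate 1 of gun1-101 rab8d-2 the test called 15 positive and 1 negative. Without replicate 1 of nac103-11 rab8d-2 it called 35 and 36, and limma voom called 23 and 4. GLYI4 (AT1G15380), a glyoxalase I family protein, had 48.3, 48.3 and 70.4 CPM in gun1-101 rab8d-2, against 93.4, 126 and 167 CPM in nac103-11 rab8d-2. In the single mutants it had 283, 335 and 339 CPM in gun1-101, against 108, 168 and 163 CPM in nac103-11. The double mutants and the single mutants thus stood in opposite order, a difference of -2.33 with an adjusted p of 0.044 in edgeR. PRF3 (AT5G56600), a profilin that binds actin, had a difference of -2.11 with an adjusted p of 0.0214, with 8.00, 7.98 and 11.7 CPM in gun1-101 rab8d-2, against 15.0, 12.2 and 24.4 CPM in nac103-11 rab8d-2. Of 3 genes noted in earlier results of these data as on or off by line, AT1G75945, annotated as an uncharacterized protein, had 11.2, 13.3 and 13.6 CPM in gun1-101 rab8d-2, against 27.5, 29.8 and 45.2 CPM in nac103-11 rab8d-2, a log2 fold change of -1.43 ± 0.37 (adjusted p 0.0428), and a difference from the change between the single mutants of 5.54 (adjusted p 0.00346). AT1G75945 averaged 0.132 CPM in gun1-101 and 0.138 CPM in WT, against 17.2 CPM in nac103-11 and 28.7 CPM in rab8d-2. It was thus near 0 in WT as well as in gun1-101. AT4G29200 had 3 counts in gun1-101 rab8d-2 and 2 in nac103-11 rab8d-2, while the WT libraries had 104, 34.5 and 59.6 CPM.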

How the data were processed

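RNA-seq libraries of root tips from 6 genotypes, 3 libraries each, were analysed. The deposited table gives an expected count per gene and library, made by the authors with RSEM 1.3.1 on TAIR10 per the submitters' processing notes, and a TPM value beside it; the read aligner is not given in the sources used here. The deposited TPM values sum to between 67.1% and 79.5% of a full TPM total per library. The authors' 12 mean columns were not used. Of the expected counts 19.6% were not whole (tolerance 1e-06) and were rounded. All 25177 gene IDs matched RefSeq, and 329 that share a symbol are given by locus.

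Counts of all 18 libraries were fitted in R 4.3.3 with edgeR 4.0.16 (filterByExpr, TMM, robust quasi-likelihood, 1 term per genotype), leaving 21004 of 25177 genes tested at a common dispersion of 0.104, with Benjamini-Hochberg adjustment over all of them. Alternatives used DESeq2 1.42.0, limma 3.58.1 with voom, limma on log2(TPM + 1), no filter, a replicate block, a transcript length offset, the 6 libraries alone and each library left out. The edgeR, DESeq2 and voom fits were also run on simulated counts, drawn independently per library at a single dispersion. The simulated counts held no nearly alike pair, no library set apart and no length trend. They thus cannot show how the fits behave under these features of the data. Intervals and floors (3 counts) cover counting error only, and the deposited counts carry no molecular identifiers.

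The members and gene lists were chosen with earlier results of these data known, and 8 aliases of list members were added once the table was seen. The text names the mutated genes; the 12 called genes that moved farthest up and the 12 farthest down, where these carry a symbol, reach 5 CPM in either double mutant and do not overlap; up to 6 per direction of the difference of differences; of each list up to 5 called members, or else the one of lowest p; and 3 genes noted earlier. The 11 genes kept without each library were added after values were seen. Lists are described by counts and medians, with no set test. Promoters come from RefSeq's TAIR10.1 genome and annotation, whereas the table gives no coordinates.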

Additional observations from a re-analysis of the deposited data

Results flagged for a closer look

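The change between the double mutants differed from the change between the gun1-101 and nac103-11 single mutants in 62 genes, by a test of that difference in edgeR. The clock scores of gun1-101 differed from those of the other 3 genotypes in this test, as given above, and their part in these values was not tested. The positive differences, on the log2 scale, were 6.05 for CYP79F2, 5.73 for MAM1, 5.51 for CYP83A1, 5.35 for IMS2 and 3.53 for MYB28 of the glucosinolate pathway, and 4.65 for AK3 and 1.55 for CARAB-AK-LYS among aspartate kinases. They were 5.54 for AT1G75945, 1.84 for APL2, 1.55 for ARIA, 1.39 for SRO1 and 1.07 for AT4G35360. AT1G75945 averaged 0.132 CPM in gun1-101 and 0.138 CPM in WT, against 17.2 CPM in nac103-11. The negative differences were -4.24 for TIM17-1, -3.64 for CLE1, -2.33 for GLYI4, -2.11 for PRF3, -1.93 for PDX1.1 and -1.35 for ATG8B. The number called was between 9 and 71 when 1 library of the 4 genotypes was left out, with 8 to 43 positive and 1 to 36 negative.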

How the results depend on the processing

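Between the double mutants 1035 genes were called, against 2611 with DESeq2's Wald test, 446 without replicates 3 of WT and nac103-11 rab8d-2 together, 36 with the length trend removed, 12 with gun1-101 rab8d-2 replicates 1 and 2 summed and 2 in the 6 libraries alone. Leaving out 1 library gave 11 to 1668 genes, and 1044 without replicate 3 of gun1-101 rab8d-2. DESeq2 size factors (938), limma voom (965), log2(TPM + 1) (1034) and no filter (744) moved the count by less than 1.5 times, and the calls of the full fit kept in the same direction were 930, 868, 655 and 743. Between the single mutants 252 genes were called, against 1392 with the Wald test, 733 on log2(TPM + 1), 494 with voom and 9 to 105 with 1 library left out. For the difference of the 2 changes 62 were called, against 450 with the Wald test, 116 on log2(TPM + 1), 27 with voom, 38 without a filter and 9 to 71 with 1 library left out. The causes of these differences were not tested. The same replicate numbers did not pair the libraries: deviations of same-numbered libraries of the double mutants correlated at 0.13, -0.26 and -0.13, and not every library correlated best with its own number. With the replicate number as a block 28 genes were called between the double mutants, 23 with the length trend removed as well, 172 between the single mutants and 37 for the difference. Among 46 called genes named in the text, 2 were on the same side of the threshold in every setting. The sign turned for genes that were not called. With 1 library left out, RABE1b ranged from -0.64 to 0.03, TT4 from -0.76 to 0.01, OLEO1 from -4.99 to 1.46, AT4G29200 from -0.30 to 0.79 and GL2 from -0.38 to 0.10. RABE1b (0.03), TT4 (0.01) and OLEO1 (1.46) turned without replicate 3 of nac103-11 rab8d-2, with or without WT replicate 3. ABCG37 turned to -0.01 with the length trend removed and GL2 to 0.07 on log2(TPM + 1). At these depths 3 counts over a group stand for 0.0386 CPM (gun1-101 rab8d-2) or 0.0451 CPM (nac103-11 rab8d-2), which limits genes such as MRD1 and AT1G07500.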

Other observations

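A few named genes differed from rab8d-2 in both double mutants. TT4 (AT5G13930), the chalcone synthase at the entry to flavonoid synthesis, had 96.5, 87.1 and 53.2 CPM in gun1-101 rab8d-2 and 85.5, 68.4 and 182 CPM in nac103-11 rab8d-2, against 890, 508 and 527 CPM in rab8d-2. It fell by 3.02 on the log2 scale in gun1-101 rab8d-2 (adjusted p 0.00127 in edgeR) and fell by 2.52 in nac103-11 rab8d-2 (adjusted p 0.00667), and the double mutants overlapped (adjusted p 0.402). GL2 (AT1G79840), a regulator of non-hair epidermis, had 9.26, 7.75 and 6.60 CPM in gun1-101 rab8d-2 and 8.23, 11.9 and 6.44 CPM in nac103-11 rab8d-2, against 18.8, 19.9 and 29.2 CPM in rab8d-2, with adjusted p-values of 0.00364 and 0.0181. ASA1 (AT5G05730), an enzyme of tryptophan synthesis, ran the other way, with 135, 132 and 106 CPM in gun1-101 rab8d-2 and 90.7, 85.2 and 88.6 CPM in nac103-11 rab8d-2, against 25.9, 54.6 and 30.1 CPM in rab8d-2. It rose by 1.76 (adjusted p 0.00507) and 1.26 (adjusted p 0.0377). Both sets of tests share the rab8d-2 libraries.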
